A study of Mus musculus with 4 samples.

Results

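The cells described here are resident-type macrophages of transplanted mammary tumours, recognised by transcripts of Folr2, Cd163 and Cbr2 in cells that also held C1q transcripts. A unique molecular identifier (UMI) marks 1 captured transcript. Barcodes were kept when they held at least 500 mouse UMIs and at least 250 genes, with at most 20% of UMIs from mitochondrial genes. A kept barcode counted as a member when Lyz2, Cd68 and Csf1r together gave at least 3 UMIs and at least 0.1% of its UMIs, Cd3d, Cd3e and Cd3g together gave at most 1 UMI, C1qa, C1qb and C1qc together gave at least 3 UMIs, and Folr2, Cd163 and Cbr2 together gave at least 2 UMIs. Of 14555 kept barcodes, 124 (0.852%) were members. The last 3 genes are called the gate genes below. A pair of neighbouring classes serve as comparison. Another 533 barcodes met the same myeloid, Cd3 and C1q limits with at most 1 UMI of the gate genes and are called other C1q macrophages. A further 704 met the myeloid and Cd3 limits with at most 2 C1q UMIs and are called C1q-low phagocytes.

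H605 is a line of HER2+ mouse mammary tumour cells. It was injected into the mammary pad of wild-type (WT) and IL1α-/- mice of strain FVB/NJ, labelled 6 to 8 weeks old, and the tumours were taken on day 14. The hosts, not the injected cells, carried the IL1α deletion, so interleukin 1α could still come from the tumour cells. Whole digested tumours, freed of red and dead cells and not sorted for any cell type, were profiled with 10x Genomics 3' single-cell libraries, 2 from WT hosts and 2 from IL1α-/- hosts. The tumours were collected as pairs, on separate days, and the labels do not say which replicate number belongs to which day. The p-values below for shares and for genes between hosts rest on the spread between these 4 samples. Where the sample is a term of the test, they rest on how far the difference between cell classes varied between samples. None covers error beyond these 4 samples.

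Resident macrophages settle in a tissue and are known for clearing dying cells, taking up iron and plasma proteins through scavenger receptors, and keeping fibroblasts and vessels supplied with growth factors. In the mammary gland and its tumours, cells with the folate receptor FOLR2 sit in the stroma, often near vessels, and are commonly set against macrophages that arise from blood monocytes inside the tumour. Folr2 encodes folate receptor beta. Cd163 encodes the scavenger receptor for haemoglobin bound to haptoglobin. Cbr2 encodes a carbonyl reductase that has long been used as a mark of resident macrophages. C1qa, C1qb and C1qc encode the chains of C1q, the first component of the classical complement pathway, which most tissue macrophages make.

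The 4 libraries differed in depth. In the order WT replicate 1, WT replicate 2, IL1α-/- replicate 1 and IL1α-/- replicate 2, which is kept for all values below, they held 23464120, 29001333, 6705368 and 15298532 UMIs and gave 4001, 4006, 3213 and 3335 kept barcodes. IL1α-/- replicate 1 stood apart as the shallowest library, with a median of 1507 UMIs in its T cells against 2897, 4422.5 and 3022 in the others. Libraries shared between 0 and 6 barcodes pairwise, and Scrublet, a doublet caller, removed no member. Il1a, the gene deleted in the IL1α-/- hosts, gave 67, 112, 1 and 0 UMIs over the kept barcodes, all but 1 of them in WT tumours. Members themselves held 2, 3, 0 and 0 Il1a UMIs. Since the deleted stretch of the gene is not given in the labels, these counts check the labels only as far as the 3' end of the transcript.

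The 124 members were unevenly spread: WT tumours held 48 and 55, and IL1α-/- tumours 2 and 19. Their UMIs summed to 304734, 405841, 5347 and 133892, with medians per cell of 5940, 6404, 2673.5 and 6309. Levels are given as CPM, the UMIs of a gene per 1000000 UMIs summed over the cells of 1 class in 1 sample. In members, a single UMI equals 3.28, 2.46, 187 and 7.47 CPM in the 4 samples, so IL1α-/- replicate 1 gives only a coarse reading. Counts of calls are therefore also given without it.

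Among the gate genes, Folr2 was the most widely detected. It was found in 39, 46, 2 and 17 member cells, at 446, 345, 1496 and 456 CPM. Cd163 was found in 34, 24, 0 and 7 cells at 1739, 493, 0 and 194 CPM, and was highest in WT replicate 1. Cbr2 was found in 28, 26, 1 and 12 cells at 384, 229, 748 and 217 CPM. All 3 genes were present together in 18, 11, 0 and 5 cells. Members were chosen by the UMIs of these genes, of the C1q, myeloid and Cd3 genes, so their levels are a description with no test. The gate is a cut through a range of counts. Just inside it, 6, 16, 1 and 4 members had exactly 2 gate UMIs, and 36, 30, 1 and 14 had 4 or more. Just outside it, 20, 34, 1 and 16 other C1q macrophages held 1 gate UMI and 136, 253, 22 and 51 held none. Outside the C1q limit, 1 cell in each of WT replicate 2 and IL1α-/- replicate 2 passed every other limit with 1 or 2 C1q UMIs. With 0 C1q UMIs, 2, 1, 0 and 1 cells passed every other limit. The C1q-low phagocytes of WT replicate 1 held 111 Cd163 UMIs in 6 cells, of which 1 cell had 2 or more.

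The label was checked with genes that the rule did not use. Gas6, a bridging molecule that links phosphatidylserine on dying cells to TAM receptors, was present in 42, 39, 0 and 9 members at 561, 293, 0 and 299 CPM, against 34.3, 38.7, 13.4 and 48.8 CPM in other C1q macrophages. It was thus higher in members in 3 of 4 samples and undetected in the 2 cells of IL1α-/- replicate 1, where 1 UMI would be 187 CPM. Markers of long-lived resident subsets were scarce. Lyve1, a hyaluronan receptor of vessel-associated macrophages, gave 16, 15, 2 and 0 UMIs, Timd4, a phosphatidylserine receptor of embryonically seeded macrophages, gave 4, 1, 0 and 0, and Vsig4, a complement receptor of the same kind of cells, gave 0 in all samples. Beside the gate genes, which chose the cells, the label rests here on Gas6 in 3 samples, and Lyve1, Timd4 and Vsig4 do not bear it out. As a background level, T cells held at least 1 gate UMI in 0.795%, 0.738%, 0.138% and 0.220% of cells, and at least 2 in 1, 0, 0 and 2 cells. Over 9 T and natural killer cell genes, members held 6, 7, 0 and 1 UMIs in all. Over 9 tumour epithelial genes they held 650, 17, 0 and 0 UMIs, 97.8% of the first from a single cell. Markers of mast cells and red cells were at 0 in all members, and the dendritic cell list gave 20 UMIs in WT replicate 1, and 0 in the other samples.

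Members made up a smaller share of the kept barcodes in both tumours from IL1α-/- hosts than in either tumour from WT hosts. They were 1.20% of kept barcodes in WT replicate 1 (exact Clopper-Pearson 95% interval 0.886 to 1.59), 1.37% in WT replicate 2 (1.04 to 1.78), 0.0622% in IL1α-/- replicate 1 (0.00754 to 0.225) and 0.570% in IL1α-/- replicate 2 (0.343 to 0.888). The intervals cover counting error only. No IL1α-/- sample reached a WT sample, and WT hosts averaged 1.29 ± 0.122% and IL1α-/- hosts 0.316 ± 0.359% (SD, n = 2 each). The difference of -0.970 percentage points had a two-sided exact permutation p of 0.33, the smallest that 2 against 2 samples allow. The difference was -0.717 points without IL1α-/- replicate 1.

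**Figure D1:**
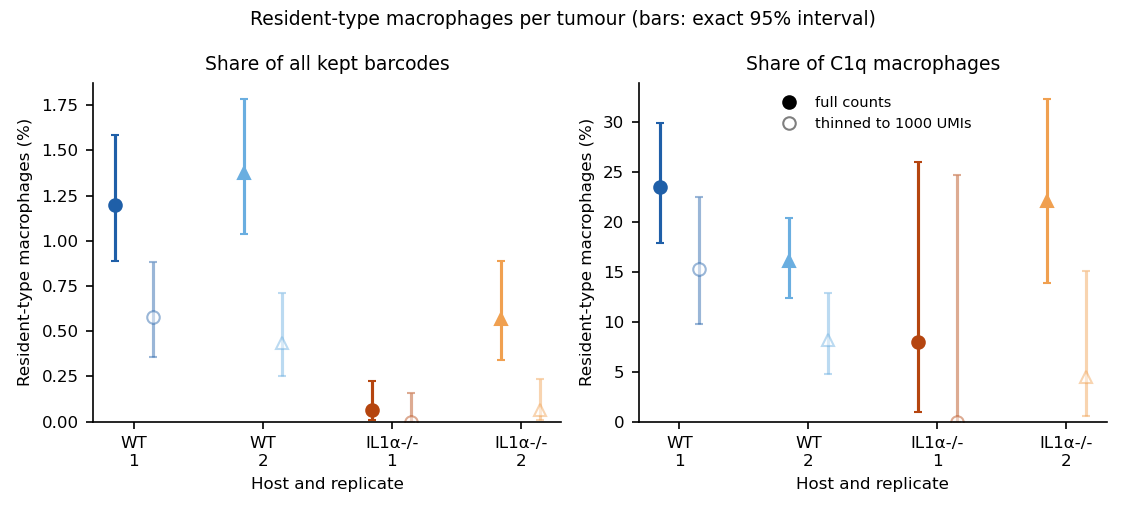
Resident-type macrophages as a percent of kept barcodes and as a percent of C1q macrophages in each of the 4 samples, on linear vertical axes; filled points use full counts and open points cells thinned to 1000 UMIs, with exact 95% intervals as bars. The share of kept barcodes was 1.20% and 1.37% in WT and 0.0622% and 0.570% in IL1α-/- samples at full counts. The share of C1q macrophages overlapped between hosts at full counts. It did not after thinning, at 15.3% and 8.16% in WT and 0% and 4.44% in IL1α-/- samples.

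C1q macrophages as a whole, members included, were 5.10%, 8.54%, 0.778% and 2.58% of kept barcodes, again lower in both IL1α-/- samples (difference -5.14 points, exact permutation p = 0.33). Within the C1q macrophages, members were 23.5% (17.9 to 30) in WT replicate 1, 16.1% (12.4 to 20.4) in WT replicate 2, 8.0% (0.984 to 26.0) in IL1α-/- replicate 1 and 22.1% (13.9 to 32.3) in IL1α-/- replicate 2. These shares overlapped between hosts. WT hosts averaged 19.8 ± 5.27% and IL1α-/- hosts 15.0 ± 9.97% (SD, n = 2 each), and the difference of -4.76 points (exact permutation p = 0.67) turned to 2.29 points without IL1α-/- replicate 1. As a share of all phagocytes, members were 12.4%, 8.93%, 1.69% and 7.88%, with a difference of -5.89 points between the host means, which was -2.80 without IL1α-/- replicate 1, and no overlap (exact permutation p = 0.33). The hosts overlapped in this share when at least 2 gate genes had to be detected (difference -4.06 points) and when cells with UMIs of other cell types were left out (-4.61 points), each with an exact permutation p of 0.67.

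The gate needs 2 UMIs of scarce transcripts, and the libraries differed in depth. When cells with at least 1000 UMIs were thinned to 1000 UMIs, 3630, 3655, 2309 and 3086 cells remained and 21, 16, 0 and 2 of them passed the gate. Their shares of these cells were 0.579%, 0.438%, 0% and 0.0648%. The 0 of 2309 cells in IL1α-/- replicate 1 allows a share of up to 0.160% by the exact interval. Thinned shares kept the order of hosts, with both IL1α-/- samples below both WT samples. Within the thinned C1q macrophages members were 15.3%, 8.16%, 0% and 4.44%, so that IL1α-/- replicate 2, which lay between the WT samples at full depth, lay below both after thinning.

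Members differed from the other C1q macrophages of the same tumours in a set of scavenger receptor, secreted factor and chemokine genes. UMIs were summed per sample and class, and the sums were compared with edgeR's quasi-likelihood test with the sample as a term. A log2 fold change of 1 means 2 times the level, SE is its standard error, and adjusted p is the Benjamini-Hochberg value over all genes tested, with a threshold of 0.05. Of 5188 genes tested, 262 passed (5.05%), 146 higher in members (2.81%) and 116 lower (2.24%). Without IL1α-/- replicate 1, 159 of 6802 genes passed (2.34%), 113 higher (1.66%) and 46 lower (0.676%). Without WT replicate 1 or WT replicate 2, 105 and 148 genes passed. The gate picked its members in these same cells. The tests therefore say which genes went with the gate on average over the samples. A call does not mean that each tumour showed the difference, and the calls are not evidence from separate cells.

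Genes known from resident macrophages were mostly higher in members. Of 27 such genes beside the gate genes, 18 passed the filter on low counts, and of these 14 were higher in members and 1 was lower. Their median log2 fold change was 1.76, against -0.05 over all genes tested. With that sample of 2 cells left out, 21 were tested, 16 were higher and 1 lower. The list was drawn up with earlier results of these data known, so this count is a description.

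Ccl8 (ENSMUSG00000009185, chromosome 11, 82115185 to 82116799, plus strand), a chemokine that draws monocytes and T cells, was the most abundant of them. It reached 29055, 24482, 34599 and 22010.3 CPM in members and 2345, 4529.6, 3533 and 10120.0 CPM in other C1q macrophages (log2 fold change 2.22, SE 0.37, adjusted p = 5.18e-05). A single gene thus supplied 2.91%, 2.45%, 3.46% and 2.20% of the UMIs of the members, and 44, 52, 2 and 18 members contained it. F13a1 (ENSMUSG00000039109, chromosome 13, 36867178 to 37050244, minus strand), the A subunit of coagulation factor XIII, stood at 528, 448, 2431 and 508 CPM against 32.2, 22.0, 175 and 94.6 (log2 fold change 3.48, SE 0.32, adjusted p = 6.37e-11). It was found in 24, 28, 2 and 13 members, so about as many member cells lacked it as held it in the WT samples. Maf (ENSMUSG00000055435, chromosome 8, 115682942 to 115707794, minus strand), a transcription factor that acts in the differentiation of tissue macrophages, stood at 1513, 850.1, 2618 and 717 CPM against 187, 105, 228 and 209 (log2 fold change 2.63, SE 0.25, adjusted p = 8.15e-11). For Ccl8, F13a1 and Maf the lowest member value lay above the highest value of the other C1q macrophages. Gas6 (ENSMUSG00000031451, chromosome 8, 13465374 to 13494490, minus strand), described above, had the largest fold change of the list among tested genes after F13a1 (log2 fold change 3.22, SE 0.29, adjusted p = 3.46e-11).

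Receptors of the list moved the same way. Mrc1, the mannose receptor CD206, was present in every member cell, at 2615, 1794, 3366 and 1964 CPM against 447, 557, 537 and 969 (log2 fold change 1.70, SE 0.26, adjusted p = 6.88e-06). Stab1, a scavenger receptor that also binds phosphatidylserine, stood at 532, 202, 187 and 172 CPM against 90.4, 63.5, 175 and 48.8 (log2 fold change 1.90, SE 0.26). Fcgrt, the neonatal Fc receptor that recycles IgG and albumin, stood at 1132, 577, 1496 and 381 CPM against 149, 188, 148 and 178 (log2 fold change 1.94, SE 0.26). Each of these 3 was higher in members in all 4 samples, though the Stab1 value of 187 CPM in IL1α-/- replicate 1 is 1 UMI. Clec10a, a galactose lectin, Nrp1, a co-receptor for semaphorins and VEGF, and Cd209d, a lectin of the DC-SIGN family, also passed, with log2 fold changes of 1.44, 1.22 and 1.88. Clec10a and Nrp1 lost the call without WT replicate 1 (edgeR adjusted p = 0.103 and 0.0813) and Cd209d lost it without IL1α-/- replicate 1 (adjusted p = 0.0714).

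Wwp1, an intracellular ubiquitin ligase, stood at 219.9, 113, 1122 and 157 CPM in members against 44.7, 37.5, 67.2 and 37.3 (log2 fold change 2.04, SE 0.25, adjusted p = 4.68e-08), higher in all 4 samples. The list also held secreted products. Selenop, which carries selenium to other tissues, stood at 6366, 2710.4, 3553 and 4197 CPM in members against 1447, 909, 779 and 1612 (log2 fold change 1.58, SE 0.27, adjusted p = 9.14e-05). Igf1, a growth factor for epithelium and fibroblasts, stood at 564, 205, 0 and 381 CPM against 51.9, 77.4, 0 and 275 (log2 fold change 1.82, SE 0.30), higher in members in the 3 samples where it was detected. Pf4, the chemokine platelet factor 4, was also higher (log2 fold change 1.28, SE 0.23, adjusted p = 0.000186), but not without WT replicate 2 (log2 fold change 0.95, adjusted p = 0.122). Ccl24, an eosinophil chemokine that marks some resident macrophages, went the other way, at 384, 1902, 187 and 1262 CPM in members against 875, 3288, 1854 and 2868 (log2 fold change -1.28, SE 0.29, adjusted p = 0.00284; adjusted p = 0.0591 without WT replicate 1). Pltp, a phospholipid transfer protein, did not pass, with a log2 fold change of 0.57, but passed with at least 2 gate genes detected (adjusted p = 0.0109). Ednrb, Fcna and Siglec1 were too scarce for the main comparison. They were tested without IL1α-/- replicate 1 and passed, with log2 fold changes of 4.63, 2.94 and 2.40.

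**Figure D2:**
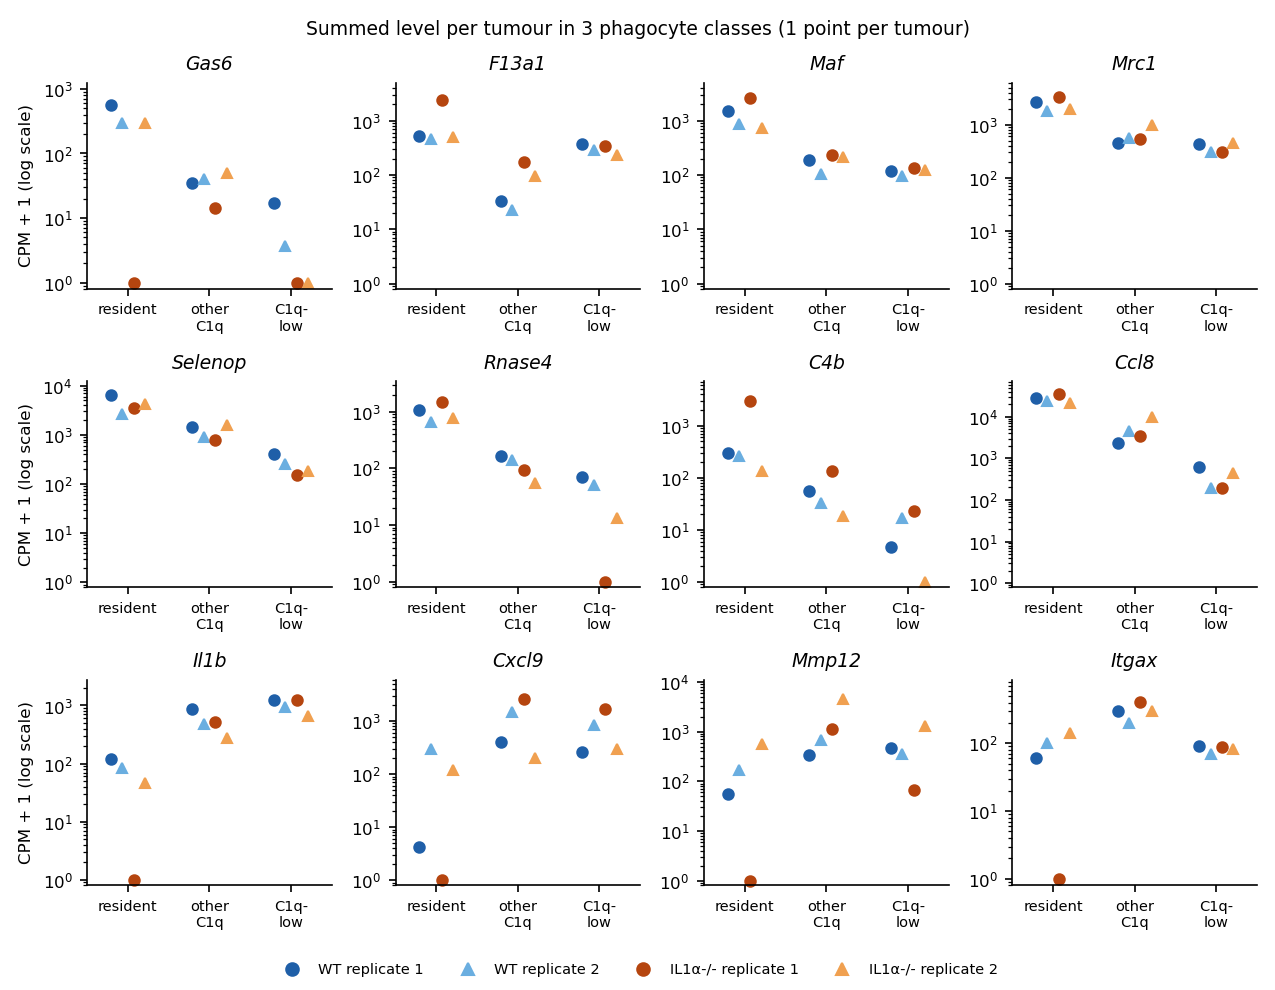
Levels of 12 genes in resident-type macrophages, other C1q macrophages and C1q-low phagocytes, 1 point per sample and class, in CPM + 1 on a log axis. Gas6, F13a1, Maf, Mrc1, Selenop, Rnase4, C4b and Ccl8 were higher, and Il1b, Cxcl9, Mmp12 and Itgax lower, in members than in other C1q macrophages; IL1α-/- replicate 1 rests on 2 member cells.

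Beyond the lists, the rule for naming genes took the 10 largest changes in each direction among genes with the same direction in every sample. Agreement between samples was thus set in advance for the genes it named. Higher in members were Tmem8 at 229.7, 93.6, 561 and 37.3 CPM against 3.12, 6.35, 13.4 and 11.5 (log2 fold change 4.31, SE 0.41, adjusted p = 8.98e-11) and Rcn3, a calcium-binding protein of the endoplasmic reticulum, at 135, 64.1, 187 and 89.6 CPM against 10.4, 6.35, 0 and 5.74 (log2 fold change 3.61, SE 0.39, adjusted p = 2.82e-09). Gja1, the gap junction protein connexin 43, stood at 128, 69.0, 187 and 52.3 CPM against 10.4, 4.62, 0 and 11.5 (log2 fold change 3.52, SE 0.40), and Etv1, an ETS transcription factor, at 164, 101, 748 and 52.3 CPM against 14.5, 13.9, 13.4 and 8.60 (log2 fold change 3.1, SE 0.36). These 4 genes were low in absolute terms, and the values of Rcn3 and Gja1 in IL1α-/- replicate 1 are 1 UMI each. Rnase4, a secreted ribonuclease, stood at 1063, 646, 1496 and 777 CPM against 167, 138, 94.0 and 54.5 (log2 fold change 2.82, SE 0.29, adjusted p = 6.12e-10). Nxpe5 and Smagp, a small adhesion glycoprotein, completed the group with log2 fold changes of 2.87 and 2.64. C4b, F13a1 and Maf are described with their lists. Rnase4 overlaps its neighbour Ang, so some reads may be assigned to neither or either gene.

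The promoters of the genes that rose most were read for the letters bound by factors of these cells, Maf and PU.1. RefSeq start sites on build GRCm38.p6 were matched for 9 of 12 genes, the 10 named above with Gas6 and Ccl8, and the 250 bases before each start were searched on both strands. The Maf letters TGCTGA occurred in 16.1% of 32851 promoter windows of the same length, and the PU.1 core GAGGAA in 23.3%. The 9 genes have 13 listed windows, of which 3 (23.1%) held the Maf letters and 4 (30.8%) the PU.1 letters. Ccl8 is shown because it was the most abundant gene and its window held both, and F13a1 because it had the largest fold change of the list. Capitals mark the matches, which read TCAGCA or TTCCTC where they lie on the other strand. The Ccl8 window is chr11:82114935-82115184, plus strand, and the F13a1 window is chr13:37050245-37050494, minus strand.
Ccl8: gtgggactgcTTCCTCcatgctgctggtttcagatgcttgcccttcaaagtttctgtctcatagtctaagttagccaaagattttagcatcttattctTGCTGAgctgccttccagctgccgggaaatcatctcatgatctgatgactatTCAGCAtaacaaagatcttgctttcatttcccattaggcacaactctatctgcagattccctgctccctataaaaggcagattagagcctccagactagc
F13a1: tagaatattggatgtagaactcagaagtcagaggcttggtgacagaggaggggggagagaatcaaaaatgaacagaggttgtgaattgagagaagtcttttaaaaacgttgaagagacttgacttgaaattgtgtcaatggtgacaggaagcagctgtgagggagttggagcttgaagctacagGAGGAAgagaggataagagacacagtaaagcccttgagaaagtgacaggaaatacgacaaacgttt
The Ccl8 window held the Maf letters 2 times and the PU.1 core 1 time, and the F13a1 window shown held 1 PU.1 core. RefSeq lists another F13a1 start, whose window chr13:37049214-37049463 held neither motif. A match is a description of the letters, not a site shown to be bound or a cause of the level.

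Genes of the clearance of dying cells held calls in both directions. Of 18 genes, 14 were tested, 2 were higher and 2 lower in members, with a median log2 fold change of -0.07. The ligand Gas6 and the scavenger receptor Stab1 were the higher ones. Axl, a TAM receptor for Gas6, was lower, at 85.3, 69.0, 0 and 52.3 CPM in members against 303, 196, 134 and 66.0 (log2 fold change -1.50, SE 0.27, adjusted p = 0.000181). The 0 of IL1α-/- replicate 1, where 1 UMI is 187 CPM, cannot show a level below 134 CPM. Mertk, the other TAM receptor tested, had a log2 fold change of 0.22 and its second ligand Pros1 one of 0.68, and neither passed. Itgb5, an integrin subunit that binds Mfge8-coated cells, was also lower (log2 fold change -0.89, SE 0.27, adjusted p = 0.0423), and lost the call without WT replicate 1, WT replicate 2 or IL1α-/- replicate 1 (adjusted p = 0.774, 0.053 and 0.148).

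Complement genes were mixed. Of 14 genes, 10 were tested, 2 were higher and 1 lower, with a median of 0.29. C4b, complement component C4, stood at 305, 259, 2992 and 134 CPM in members against 54.0, 31.8, 134 and 17.2 (log2 fold change 2.86, SE 0.27, adjusted p = 8.98e-11). It has a near-identical copy, C4a, so its counts depend on how shared reads were assigned. Itgax, the integrin chain CD11c of complement receptor 4, was lower, at 59.1, 101, 0 and 142 CPM against 302, 199, 403 and 298 (log2 fold change -1.51, SE 0.27, adjusted p = 0.000164). Its values were lower in all 4 samples, but the 0 of IL1α-/- replicate 1, where 1 UMI is 187 CPM, is a coarse reading. Among 13 iron and haem genes 11 were tested and 3 passed. Tfrc, the transferrin receptor, was higher (log2 fold change 1.22, SE 0.25, adjusted p = 0.000743) and lost the call without WT replicate 1 (adjusted p = 0.0925). Slc11a1, a metal transporter of phagosomes, and Nfe2l2, the oxidative stress factor NRF2, were lower, with log2 fold changes of -1.15 and -1.04. Both lost the call without WT replicate 1 (adjusted p = 0.215 and 0.47) and without IL1α-/- replicate 1 (adjusted p = 0.112 and 0.0804), and Slc11a1 also without WT replicate 2 (0.0832).

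Chemokine ligands moved in opposite directions. Of 17 ligands, 15 were tested, 5 were higher and 4 lower, with a median of -0.54. The higher ones were Ccl8, Pf4, Ccl6 and the monocyte attractants Ccl7 and Ccl12. Ccl7 stood at 151, 347, 935 and 717 CPM in members against 40.5, 130.0, 161 and 178 (log2 fold change 1.74, SE 0.24, adjusted p = 1.09e-06), and Ccl12 at 564, 678, 561 and 754 CPM against 251, 309.6, 282 and 86.0 (log2 fold change 1.55, SE 0.28, adjusted p = 0.000196). Both were higher in members in every sample. Ccl6 rose by 1.00 on the log2 scale (adjusted p = 0.0255) and lost the call without WT replicate 1, WT replicate 2 or IL1α-/- replicate 1 (adjusted p = 0.498, 0.335 and 0.0942). The lower ones were Ccl24 and the CXC ligands Cxcl2, Cxcl9 and Cxcl10. Cxcl9, an interferon-induced ligand that draws activated T cells, stood at 3.28, 293, 0 and 119 CPM against 407, 1483, 2539 and 201 (log2 fold change -2.65, SE 0.39, adjusted p = 3.2e-06). Cxcl2, a neutrophil attractant, stood at 72.2, 64.1, 0 and 844 CPM against 467, 332, 3600.3 and 1276 (log2 fold change -2.11, SE 0.38, adjusted p = 0.000149). Cxcl9 and Cxcl2 were lower in members in all 4 samples. Of 5 chemokine receptors, all tested with edgeR, 0 passed in either direction (1 at an unadjusted p under 0.05, and 0 passed with DESeq2). Ccr2, the receptor that brings monocytes in from blood, stood at 446, 490.3, 0 and 105 CPM in members against 485, 507, 188 and 204 in other C1q macrophages, and 19, 27, 0 and 5 members held it.

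Inflammatory and interleukin 1 pathway genes were lower where they passed. Of 19 genes, 12 were tested, 0 were higher and 4 lower, with a median of -0.68. Il1b, interleukin 1β, stood at 118, 83.8, 0 and 44.8 CPM in members against 879, 486, 510.5 and 272 (log2 fold change -2.66, SE 0.30, adjusted p = 1.28e-08), and was found in 8, 5, 0 and 2 members. Ptgs2, the prostaglandin synthase COX-2, stood at 6.56, 22.2, 0 and 0 CPM against 48.8, 67.0, 107 and 189 (log2 fold change -2.64, SE 0.47, adjusted p = 0.000112). The values of both genes were lower in members in all 4 samples, as the naming rule asked. In IL1α-/- replicate 1, where 1 UMI is 187 CPM, the 0 of both genes is too coarse to show a lower level. Il1rn, the interleukin 1 receptor antagonist, fell as well (log2 fold change -1.29, SE 0.29, adjusted p = 0.00292; adjusted p = 0.133 without WT replicate 2). Nlrp3, the inflammasome sensor, changed by -1.1 on the log2 scale with an adjusted p of 0.0404, which became 0.508, 0.122 and 0.11 without WT replicate 1, IL1α-/- replicate 1 or IL1α-/- replicate 2. Il1a itself was too scarce to be tested, with 2, 3, 0 and 0 UMIs in members and 57, 44, 0 and 0 in other C1q macrophages.

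Antigen presentation genes leaned lower. Of 12 genes of the MHC class II pathway, 10 were tested, all 10 had log2 fold changes below 0, 3 passed as lower, and the median was -0.79. Ciita, the master regulator of class II transcription, stood at 65.6, 116, 0 and 105 CPM in members against 223, 263, 175 and 163 (log2 fold change -1.27, SE 0.27, adjusted p = 0.00159; adjusted p = 0.0983 without WT replicate 1). H2-Ab1, a class II beta chain, stood at 4239.8, 6434, 7107 and 6445 CPM against 10775, 9021, 9349.9 and 9615 and did not pass (log2 fold change -0.93, SE 0.31, adjusted p = 0.0748), but did without IL1α-/- replicate 1 (adjusted p = 0.0259). Its member values lay below the matching other C1q macrophages in all 4 samples, furthest in WT replicate 1. H2-DMb1, which loads class II molecules, and Cd86, a costimulatory ligand, passed narrowly, with log2 fold changes of -0.83 and -1.14. H2-DMb1 lost the call when any 1 of the 4 samples was left out (adjusted p 0.0541 to 0.751), and Cd86 without WT replicate 1, WT replicate 2 or IL1α-/- replicate 1 (0.181, 0.243 and 0.0956).

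Matrix and growth factor genes held calls in both directions. Of 16 genes, 13 were tested, 3 were higher and 2 lower. Pdgfc, a mitogen of fibroblasts, stood at 219.9, 66.5, 0 and 52.3 CPM in members against 15.6, 22.5, 26.9 and 22.9 (log2 fold change 2.36, SE 0.35, adjusted p = 6.06e-06), higher in 3 of 4 samples. Timp2, an inhibitor of matrix metalloproteinases, had a log2 fold change of 1.03 and lost the call without WT replicate 1 or WT replicate 2 (adjusted p = 0.0728 and 0.323). Mmp12, macrophage elastase, stood at 55.8, 165, 0 and 568 CPM against 341, 681, 1155 and 4588 (log2 fold change -2.80, SE 0.40, adjusted p = 1.89e-06), and Mmp13, a collagenase, at 0, 22.2, 0 and 29.9 CPM against 68.5, 118, 26.9 and 309.7 (log2 fold change -3.17, SE 0.54, adjusted p = 6.68e-05). Both were lower in members in every sample, as the naming rule asked, though few member cells held them. For Mmp13 the 0 of IL1α-/- replicate 1, where 1 UMI is 187 CPM, cannot show a level below 26.9 CPM. The remaining genes with the largest falls were Lyz1, Chil1, Slc7a11, Ly6i and Ass1. Ass1, an enzyme that rebuilds arginine, stood at 3.28, 19.7, 0 and 29.9 CPM against 18.7, 135, 215 and 109 (log2 fold change -2.51, SE 0.39), and was lower in members. Chil1, a chitinase-like protein, Slc7a11, a cystine transporter, and Ly6i gave 3 UMIs each in all members against 162, 105 and 129 in other C1q macrophages. Pooled over samples, Chil1 was 14.7 times lower (4.95 to 72.1), Slc7a11 9.54 times lower (3.18 to 47.0) and Ly6i 11.7 times lower (3.92 to 57.6), with 95% intervals that cover counting error only. Chil1 passed with an adjusted p of 0.000239. Lyz1, a lysozyme with a near-identical copy in Lyz2, had a log2 fold change of -4.51. Lyz1, Slc7a11 and Ly6i lost the call without IL1α-/- replicate 1 (adjusted p = 0.163, 0.108 and 0.056).

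Other programmes of tumour macrophages gave few calls. Of 13 alternative activation genes 12 were tested, with 3 higher and 1 lower and a median of 0.56. Mrc1 and Clec10a were among the higher ones, as was Il4ra, the receptor chain for interleukins 4 and 13, at 453, 298, 187 and 134 CPM against 114, 119, 161 and 74.6 (log2 fold change 1.40, SE 0.26, adjusted p = 0.000226). Tgfbi, a matrix protein induced by TGF-beta, was lower with an adjusted p of 0.0423, and lost the call without WT replicate 1, WT replicate 2 or IL1α-/- replicate 1 (0.187, 0.133 and 0.0997). Retnla, a secreted mark of interleukin 4 signalling, stood at 13097, 21807, 34786 and 28739.6 CPM in members against 6924, 9854, 6703 and 20902, higher in all 4 samples, and did not pass (log2 fold change 0.91, adjusted p = 0.115). It passed with sums scaled by library size alone, with at least 2 gate genes detected, without cells holding UMIs of other cell types, and against C1q macrophages with no gate UMI (adjusted p = 0.00774, 0.0413, 0.00223 and 0.0232). Arg1, arginase 1, had a log2 fold change of 0.55 and did not pass. Of 17 genes of lipid-associated macrophages 14 were tested, and only Lgals3, galectin 3, passed, as lower. Trem2 and Apoe, the receptor and lipoprotein that define that programme, had log2 fold changes of 0.17 and 0.18. Of 20 interferon-stimulated genes 13 were tested with edgeR and 0 passed (4 at an unadjusted p under 0.05, and 0 passed with DESeq2). Of 13 monocyte genes all were tested and Itgal, an integrin chain of leukocytes, alone passed, as lower (log2 fold change -1.61, adjusted p = 0.00556, and 0.0678 without IL1α-/- replicate 1). Among 18 transcription factors 17 were tested, with Maf higher and Nr1h3, the liver X receptor alpha, lower (adjusted p = 0.0499, and 0.0917 to 0.278 without 1 sample). Lgals3 lost its call without WT replicate 1 (0.214) and without IL1α-/- replicate 1 (0.0956). With DESeq2 in place of edgeR, Mmp13, Ccl12, Cxcl10, Pdgfc and Cd209d also lost the call (adjusted p = 0.147, 0.0584, 0.135, 0.165 and 0.0609). So did Itgb5, Slc11a1, Cd86, Ccl6, Nlrp3, Tgfbi and Nr1h3 (DESeq2 adjusted p = 0.158, 0.0631, 0.084, 0.0684, 0.0741, 0.0527 and 0.123).

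**Figure D3:**
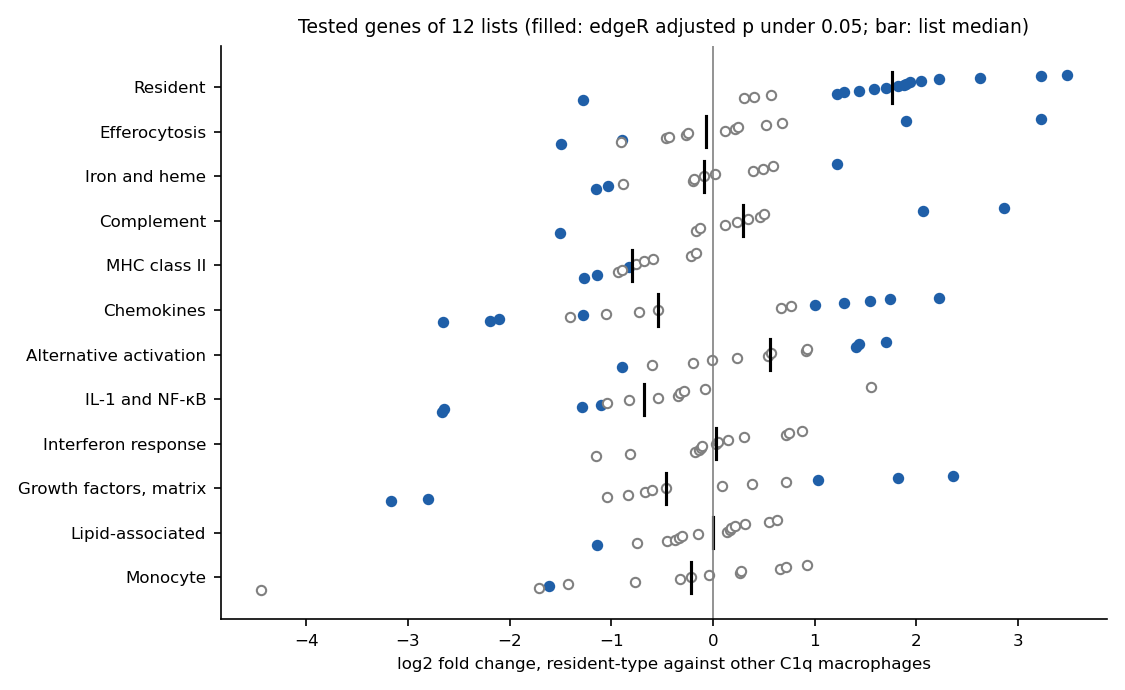
Log2 fold change between resident-type and other C1q macrophages for each tested gene of 12 gene lists, 1 point per gene, filled where the edgeR adjusted p was under 0.05, with a bar at each list's median. The resident list has its median at 1.76 with 14 of 18 tested genes higher, while MHC class II genes all lie below 0.

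In the WT samples, Maf and Ccl8 rose broadly with the number of gate UMIs per cell, though in WT replicate 1 both were lower at 2 than at 1. Cells of the C1q gate were sorted by 0, 1, 2, 3 to 5, and 6 or more gate UMIs. In WT replicate 1, with 136, 20, 6, 15 and 27 cells in these bins, Maf went from 137 CPM to 459, 231, 802 and 2224, and Ccl8 from 1428 CPM to 7387, 5155, 16640 and 41962. In WT replicate 2, with 253, 34, 16, 19 and 20 cells, Maf went from 76.6 CPM to 354, 423, 544 and 1585, and Ccl8 from 3868 CPM to 10300.4, 10658, 16176 and 46657. In both WT samples the cells with 6 or more gate UMIs held the highest levels. Il1b ran the other way in WT replicate 1, at 917, 668, 71.1, 95.2 and 143 CPM, and in WT replicate 2, at 474, 595, 37.1, 95.5 and 119 CPM, with its step between 1 and 2 gate UMIs. H2-Ab1 went from 10996 CPM to 2653 in WT replicate 1 and from 9148 CPM to 5749 in WT replicate 2. In IL1α-/- replicate 2, with 51, 16, 4, 5 and 10 cells, Ccl8 was 8755, 12972, 21326, 33489 and 18609 CPM and Maf 225, 177, 1339, 859 and 522 CPM, with no such order. Several bins hold under 20 cells. Median UMIs per cell were 5073 with no gate UMI and 6428 with 6 or more in WT replicate 1, 4662 and 5753 in WT replicate 2, and 3706 and 6892.5 in IL1α-/- replicate 2, and the part of depth in the gradient was not tested. The cells with 1 gate UMI, which the gate leaves out, had levels of Maf and Ccl8 between those of cells with none and those of cells with 3 or more in both WT samples.

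**Figure D4:**
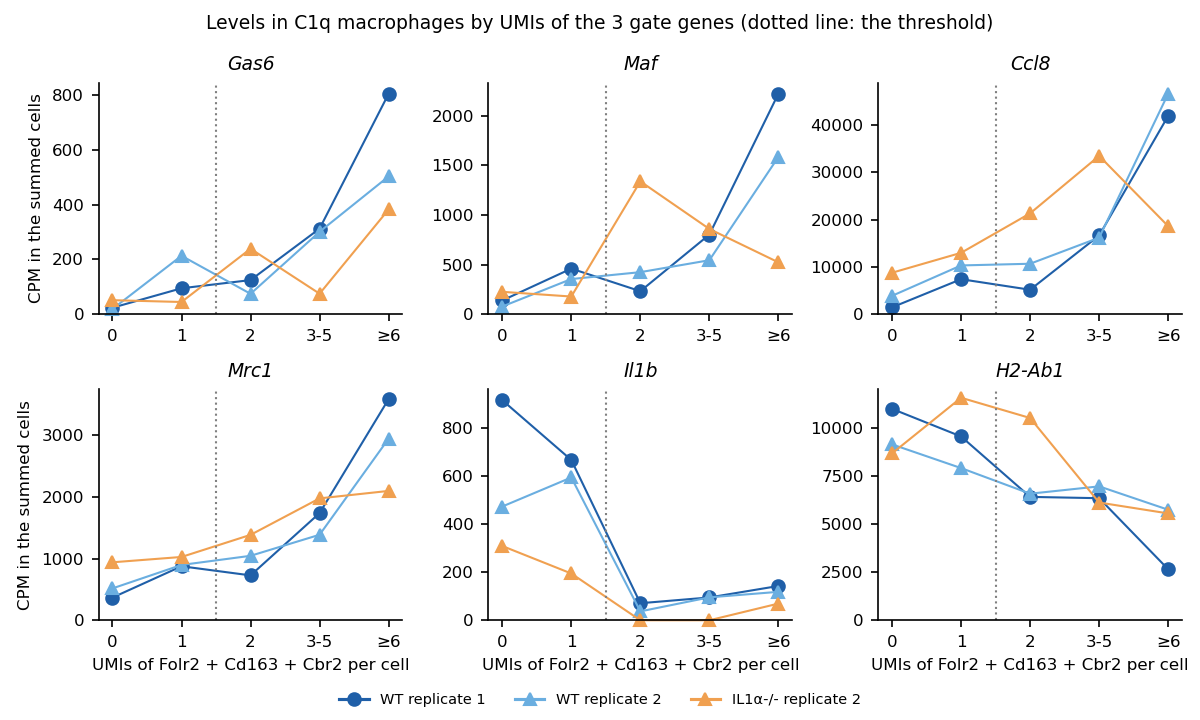
Levels of Gas6, Maf, Ccl8, Mrc1, Il1b and H2-Ab1 in CPM (linear axes) by gate UMIs per cell (0, 1, 2, 3 to 5, 6 or more). Samples shown are WT replicate 1, WT replicate 2 and IL1α-/- replicate 2. IL1α-/- replicate 1 is left out because it has 2 members. In the WT samples Ccl8 goes from 1428 and 3868 CPM in cells without gate UMIs to 41962 and 46657 CPM in cells with 6 or more.

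Against the C1q-low phagocytes of the same tumours, more genes passed. Of 5188 genes tested in the same edgeR model, 1072 passed (20.7%), 553 higher in members (10.7%) and 519 lower (10.0%). When IL1α-/- replicate 1 was left out, 1207 of 6802 passed (17.7%), 633 higher (9.31%) and 574 lower (8.44%), and 654 and 587 genes passed without WT replicate 1 and WT replicate 2. The resident list had 17 of 18 tested genes higher and 0 lower, with a median of 3.0 against -0.04 over all genes. The monocyte list had 1 of 13 higher and 10 lower, with a median of -2.75, and 0 higher and 9 lower without IL1α-/- replicate 1.

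C6, a component of the complement attack complex, stood at 108, 145, 561 and 82.2 CPM in members against 0, 0.676, 0 and 0 in C1q-low phagocytes (adjusted p = 1.5e-16). Its C1q-low value is 1 UMI in all, and the pooled ratio is 388 with a counting interval of 68.2 to 15473. Ccl8 stood at 622, 192, 189 and 456 CPM in C1q-low phagocytes (log2 fold change 6.13, SE 0.44), and Gas6 had a log2 fold change of 6.06. Rnase2a, an eosinophil-type ribonuclease, stood at 971, 924, 2057 and 1239.8 CPM against 25.1, 50.7, 11.1 and 53.4 (log2 fold change 4.85, SE 0.32, adjusted p = 4.55e-16). These genes were higher in members in every sample, apart from Gas6 in IL1α-/- replicate 1, where members held 0. The naming rule asked for this of C6, Ccl8 and Rnase2a. C4b, Rcn3, Rnase4, Pf4, Hal, Pmp22 and Ccl12 followed, with log2 fold changes from 5.05 down to 3.96. The list of lipid-associated macrophage genes had 9 of 14 tested genes higher and 2 lower, with a median of 1.44. Apoe, a lipid carrier, was 12828, 7141, 6546 and 8835 CPM in members against 2097, 2011, 909.9 and 938 in C1q-low phagocytes (log2 fold change 2.41, SE 0.34, adjusted p = 3.02e-07), with a log2 fold change of 0.18 against other C1q macrophages. Trem2, the lysosomal proteases Ctsb and Ctsd and the tetraspanin Cd63 were likewise higher than in C1q-low phagocytes, with log2 fold changes of 1.61, 2.14, 1.88 and 2.65. F13a1 rose less (log2 fold change 0.96, SE 0.26, adjusted p = 0.00591), and lost the call without IL1α-/- replicate 1 (adjusted p = 0.0905).

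Of the 13 monocyte genes tested, 10 were lower in members than in C1q-low phagocytes. Ly6c2, a surface marker of classical monocytes, stood at 9.84, 2.46, 0 and 0 CPM in members against 271, 299, 782 and 503 (log2 fold change -6.00, SE 0.45, adjusted p = 1.47e-14). Ccr2 stood at 446, 490.3, 0 and 105 CPM against 1346, 1017, 838 and 621 (log2 fold change -1.65, SE 0.28, adjusted p = 1.2e-05). Both were lower in members in all 4 samples. Ms4a4c, Plac8 and S100a4 had log2 fold changes of -4.09, -3.36 and -2.22. Vcan, the matrix proteoglycan versican, gave 3 UMIs in members against 254 in C1q-low phagocytes, 23.1 times lower (7.82 to 113) when pooled over samples. S100a8 and Hp, genes of neutrophils and immature monocytes, gave 0 UMIs among the 849814 of all members. With a floor of 3 counts over the group, they were at least 142-fold and 29.9-fold lower than in C1q-low phagocytes pooled over samples. Adgre4, Itgb7, Lyz1, Pglyrp1 and Stap1 were among the other genes with the largest falls, with 1, 1, 4, 2 and 3 UMIs in all members. Adgre4 and Itgb7 each held 177 UMIs in C1q-low phagocytes, Pglyrp1 183 and Stap1 254. Lyz1 had a log2 fold change of -4.73. Of 12 tested interleukin 1 pathway genes, 8 were lower and 1 higher. The higher one was Nos2, of whose member UMIs 1 cell supplied 91%.

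Between hosts, few genes differed in the members, and 1 of the 4 samples held 2 cells. Of 3164 genes tested over the 4 sums of members, 11 passed (0.348%), 10 higher in IL1α-/- hosts (0.316%) and 1 lower (0.0316%), with 172 at an unadjusted p under 0.05. Without IL1α-/- replicate 1, 0 of 5060 genes passed edgeR, with 358 at an unadjusted p under 0.05. The values of the 2 hosts did not overlap for 502 genes that were higher in IL1α-/- hosts (15.9%) and for 704 that were lower (22.3%). IL1α-/- replicate 2 alone lay above both WT samples for 1250 genes (39.5%) and below both for 1135 (35.9%).

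Among genes of heat shock and the immediate early response, Junb, Fosb and Atf3 were at higher levels in both IL1α-/- samples and Hspa1a and Hspa1b overlapped between hosts. The summed share of 10 such genes, often raised by tissue digestion, was 0.196%, 0.137%, 0.430% and 0.499% of member UMIs, higher in both IL1α-/- samples, with no test of the sum. It was 0.299%, 0.205%, 0.429% and 0.438% in other C1q macrophages and 0.441%, 0.282%, 0.402% and 0.419% in C1q-low phagocytes. The AP-1 genes Junb and Fosb and the stress factor Atf3 stood at 706, 724, 1122 and 2748 CPM for Junb, 292, 148, 1683 and 926 CPM for Fosb, and 194, 108, 935 and 642 CPM for Atf3. The heat shock genes stood at 158, 32.0, 187 and 74.7 CPM for Hspa1a and 223, 14.8, 187 and 0 CPM for Hspa1b. Of the list 6 were tested between hosts with edgeR and 0 passed (3 at an unadjusted p under 0.05, and 0 passed with DESeq2). The part of this list in the host calls was not tested.

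Errfi1, a feedback inhibitor of EGF receptor signalling, stood at 19.7, 29.6, 187 and 269 CPM (log2 fold change 3.19, SE 0.61, adjusted p = 0.000308). Hbegf, an EGF family growth factor, stood at 49.2, 17.2, 187 and 172 CPM (log2 fold change 2.31, SE 0.60, adjusted p = 0.0398). Mt2, a metallothionein that binds zinc and copper, stood at 39.4, 73.9, 187 and 329 CPM (log2 fold change 2.24, SE 0.58, adjusted p = 0.0398). For these 3 genes both IL1α-/- samples lay above both WT samples, as the naming rule asked. But each value of IL1α-/- replicate 1 is a single UMI, and 1 cell gave 44% of all Errfi1 UMIs in members. Cxcl2 stood at 72.2, 64.1, 0 and 844 CPM (log2 fold change 3.1, SE 0.59, adjusted p = 0.000308), with the groups overlapping, since it was high in IL1α-/- replicate 2, in 12 of its 19 cells, and undetected in IL1α-/- replicate 1. AA467197, Mfge8 and Cd36 were likewise high in IL1α-/- replicate 2 alone and overlapped between hosts, and 67% of Mfge8 and 54% of Cd36 UMIs came from 1 cell. H2-M2, a non-classical MHC class I gene, was the gene called lower, at 52.5, 244, 0 and 7.47 CPM (adjusted p = 0.0329). Its IL1α-/- values lay below both WT values and rest on 1 UMI against 115 in WT members, 22.5 times lower (3.96 to 898) when pooled. Left out singly, IL1α-/- replicate 1 and IL1α-/- replicate 2 each ended all calls, and 2 and 17 genes passed without WT replicate 1 and WT replicate 2, with adjusted p without IL1α-/- replicate 1 of 0.428 for Errfi1 and Cxcl2, 0.571 for Hbegf and 0.724 for H2-M2.

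Genes that did not pass were ranked by p within each direction, so the sign of those named here was fixed by the choice. Among genes fitted lower in IL1α-/- hosts, at 50 CPM or more in WT hosts, these were Tnfaip8l2, Cx3cr1, Hspa1b and Lpl. Their edgeR adjusted p lay between 0.0938 and 0.0943. Cx3cr1, the fractalkine receptor of resident and patrolling cells, stood at 219.9, 66.5, 0 and 14.9 CPM, with the IL1α-/- values below both WT values and only 2 UMIs in IL1α-/- members. Hspa1b, a heat shock gene, overlapped between hosts. The resident genes gave no call. Of the list 22 were tested with edgeR, 0 passed as higher and 0 as lower (2 at an unadjusted p under 0.05, and 0 passed with DESeq2), with a median of -0.44 against -0.11 over all genes, and of -0.17 against -0.05 without IL1α-/- replicate 1. Ccl8 had a log2 fold change between hosts of -0.51 (SE 0.82), Maf -0.38 (SE 0.73), Mrc1 -0.31 (SE 0.75), Gas6 -0.86 (SE 0.62) and F13a1 0.55 (SE 0.67), all with adjusted p = 0.995. All 5 overlapped between hosts, and the signs of Ccl8, Maf and Mrc1 turned when sums were scaled by library size alone (0.045, 0.0042 and 0.12). Ccr2 stood at 446, 490.3, 0 and 105 CPM, lower in both IL1α-/- samples, and did not pass (log2 fold change -2.40, adjusted p = 0.115). With library size alone, Ccr2, Cx3cr1, Lpl, Tnfaip8l2 and Hspa1b passed (adjusted p = 0.0103, 0.0373, 0.0295, 0.0461 and 0.0446). With members that held H2-Ab1, an alternative chosen after seeing the data, Ccr2, Cx3cr1 and Lpl passed (0.0308, 0.0442 and 0.0361), and Lpl also with at least 3 gate UMIs (0.0122). Il1b stood at 118, 83.8, 0 and 44.8 CPM and did not pass (log2 fold change -1.32).

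**Figure D5:**
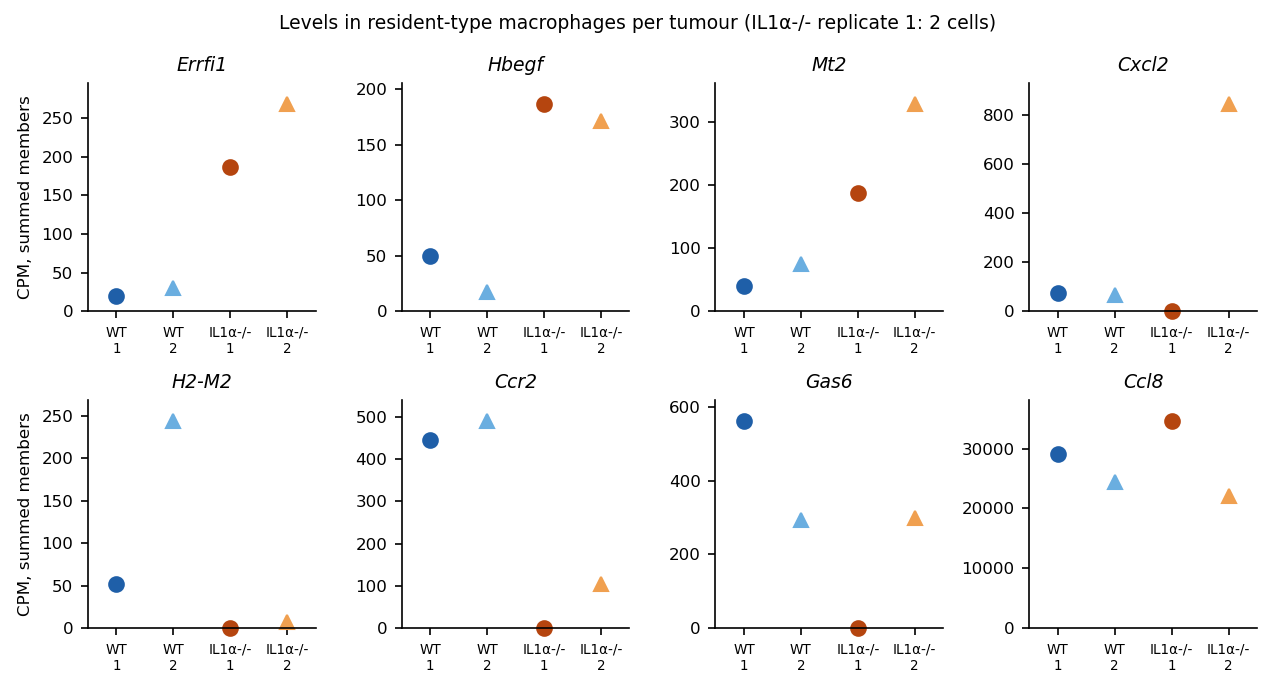
Levels of Errfi1, Hbegf, Mt2, Cxcl2, H2-M2, Ccr2, Gas6 and Ccl8 in the resident-type macrophages of each of the 4 tumours, in CPM, by host. IL1α-/- replicate 1 rests on 2 cells, where 1 UMI equals 187 CPM, so its values are 0 or multiples of 187.

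Whether the host difference in members departed from that in other C1q macrophages was tested as an interaction over 8 sums. Of 5108 genes 2 passed (0.0392%), both with a larger IL1α-/- minus WT difference in members, and 0 passed in the other direction (0.0% at this threshold), with 169 at an unadjusted p under 0.05. Ccl3, a chemokine of inflammatory macrophages, stood at 9.84, 4.93, 0 and 82.2 CPM in members and 158, 13.9, 13.4 and 17.2 CPM in other C1q macrophages (interaction 5.38 on the log2 scale, SE 1.1, edgeR adjusted p = 0.00511). These are 3, 2, 0 and 11 UMIs in members. Ube2c, a ubiquitin-conjugating enzyme of the cell cycle, stood at 55.8, 9.86, 0 and 164 CPM in members and 13.5, 23.7, 0 and 0 CPM in other C1q macrophages (interaction 8.45, SE 1.83, edgeR adjusted p = 0.0105), and 1 cell gave 51% of its member UMIs. Other C1q macrophages held 0 Ube2c UMIs in both IL1α-/- samples, so the fitted size depends on edgeR's prior count. Among members the high value of both genes lay in IL1α-/- replicate 2, and without that sample the interaction was -2.48 for Ccl3 and -0.58 for Ube2c. For Ccl3 the highest value of all was the 158 CPM in other C1q macrophages of WT replicate 1. Without WT replicate 1 the Ccl3 interaction was 3.41. Acod1, the itaconate-producing enzyme, had an interaction of 4.0 (adjusted p = 0.0835) and Ltc4s, the leukotriene C4 synthase, one of 3.66 (adjusted p = 0.112), and neither passed. Both passed without IL1α-/- replicate 1 (6.08 and 3.56, adjusted p = 8.62e-05 and 0.0125) and with library size alone (adjusted p = 0.00658 and 0.0133), while Acod1 turned to -7.24 without IL1α-/- replicate 2. Leaving out IL1α-/- replicate 1, 19 of 6262 genes passed (0.303%), 8 higher (0.128%) and 11 lower (0.176%), and without WT replicate 1, WT replicate 2 or IL1α-/- replicate 2 the counts were 0, 0 and 55. Gas6 had an interaction of -0.95 (SE 0.80) and did not pass.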

How the data were processed

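Single-cell RNA was measured in 4 tumours, 2 from WT and 2 from IL1α-/- hosts. The deposited matrices hold UMI counts per gene and barcode, made by the authors with Cell Ranger 3.1.0 on build mm10, per the submitters' processing notes. Every barcode listed was deposited, and no cell filter is recorded in the sources used here. The kept barcodes held 84.1%, 88.0%, 84.9% and 89.7% of the mouse UMIs. Human rows were left out, and no step corrected for free RNA.

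The gate, sums and levels were computed in Python 3.11.15 and the tests in R 4.3.3 with edgeR 4.0.16 (filterByExpr, TMM scaling, glmQLFit and glmQLFTest), after the code was tested on simulated data. DESeq2 1.42.0 was an alternative, as were other gates, filters, Scrublet (scanpy 1.11.5) and leaving out each sample. Shares were compared with exact permutation tests over samples (scipy 1.17.1). Gene positions are those of GENCODE M21, build mm10. Gene names beyond the lists followed a rule: per comparison the 10 largest log2 fold changes in each direction with adjusted p under 0.05, at least 50 CPM in the higher group and the same direction in every sample (classes) or no overlap (hosts), and for the interaction 5 per direction by smallest p; where under 5 passed the rule, those with the smallest p were added. Gm, Rik, mitochondrial and ribosomal protein genes and the 12 genes of the gate were left out. Il1a and Gas6 were always given. The members and the gene lists were chosen with earlier results of these data known. Results for a few genes are not reported here.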

Additional observations from a re-analysis of the deposited data

Results flagged for a closer look

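Only 2 results met a reason for a second look, and both came from the test of the difference between the host effects in resident-type and in other C1q macrophages (edgeR, 8 sums). For Ccl3 the IL1α-/- minus WT difference was 5.38 higher in members on the log2 scale, with 3, 2, 0 and 11 UMIs in the members of the 4 samples. For Ube2c it was 8.45 higher, with 51% of the member UMIs from 1 cell and with 0 UMIs in the other C1q macrophages of both IL1α-/- samples, so that the fitted size depends on the prior count. No group held enough samples for a search for a single sample far from the others.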

How the results depend on the processing

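The difference in the share of kept barcodes (-0.970 points) stayed below 0 in every alternative run. It was -0.616 with at least 2 of the 3 gate genes detected, -0.501 without cells holding UMIs of other cell types, -0.476 after thinning, and -1.22 to -0.717 when 1 sample was left out. The difference in the share of C1q macrophages reversed to 2.29 without IL1α-/- replicate 1 and ranged from -11.8 to 2.29 over left-out samples. After thinning it was -9.52, and the hosts did not overlap. Genes called against other C1q macrophages (262) were 153 with DESeq2 and 105 to 315 over left-out samples, and those against C1q-low phagocytes (1072) were 587 to 1207. Higher genes were 55.7% of the calls against other C1q macrophages, 44.6% with no low-count filter and 71.1% without IL1α-/- replicate 1; against C1q-low phagocytes they were 51.6% and 40.0% with no filter. Of 65 genes named against other C1q macrophages 56 were called, none of these reversed, and 30 passed in every alternative. Mertk, not called, ranged from -0.16 to 0.38 over left-out samples.

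Calls between hosts (11) moved in most alternatives. They numbered 0 with DESeq2 (34 at an unadjusted p under 0.05), 0 with a replicate block (73), 3 with at least 3 gate UMIs, 2 with at least 2 gate genes, 1 without UMIs of other cell types and 0 to 17 over left-out samples. With library size alone, an alternative chosen after seeing that TMM gave the sum of 2 cells a factor of 1.75, 50 passed and 72.0% were higher against 90.9%; Ccl8, Maf and Mrc1 then turned to 0.045, 0.0042 and 0.12. Over left-out samples Cxcl2 ranged from -7.04 to 3.61, AA467197 from -6.40 to 8.44, Mfge8 from -6.55 to 4.20 and Cd36 from -5.86 to 7.84, each lowest without IL1α-/- replicate 2. Interaction calls (2) numbered 0 with DESeq2, 4 with library size alone, 1 with a replicate block, 5 with at least 2 gate genes, 0 without UMIs of other cell types, 1 against C1q macrophages with no gate UMI and 0 to 55 over left-out samples. Over left-out samples Ube2c ranged from -0.58 to 10.05, Acod1 from -7.24 to 6.08, Cenpa from -5.31 to 2.21 and Ccl3 from -2.48 to 6.01, each again lowest without IL1α-/- replicate 2, and Acod1 was -6.57 with at least 2 gate genes. The cause of these shifts was not tested. The labels did not tie equal replicate numbers to pairs. Differences between replicates 1 and 2 had a correlation between hosts of 0.0604 in members, 0.0262 in other C1q macrophages and 0.0278 in C1q-low phagocytes. In members this value cannot decide on pairing, because IL1α-/- replicate 1 holds 2 cells. With 2 to 55 members a sample, depth limits every host comparison, and a gene without a UMI in IL1α-/- replicate 1 could still lie at up to 561 CPM (3 counts).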

Other observations

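Members of WT replicate 1 included cells with no H2-Ab1 transcript, which were nearly missing elsewhere. They were 15 of 48 members (31.3%) in WT replicate 1, 0 of 55 in WT replicate 2, 0 of 2 in IL1α-/- replicate 1 and 1 of 19 (5.26%) in IL1α-/- replicate 2. Among other C1q macrophages, 1 of 156, 5 of 287, 0 of 23 and 0 of 67 cells lacked it. The 15 cells had a median of 5782 UMIs against 6516 in the other 33 members of that tumour.

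The 15 cells carried the strongest gate and resident transcripts of that sample. Cd163 stood at 4443 CPM in them against 760 CPM in the other 33, and Ccl8 at 58706 against 18314 CPM. Mrc1 stood at 4628 against 1886 CPM, Maf at 2863 against 1024 CPM, Selenop at 12218 against 4247 CPM, and Gas6 at 1012 against 398 CPM. Cd209f, a lectin of marginal and vessel-associated macrophages, gave 15 UMIs against 1. Ccr2 was found in none of the 15 and in 19 of the other 33, and Retnla stood at 568 against 17635 CPM. Cx3cr1 stood at 12.3 against 295 CPM and F13a1 at 296 against 612 CPM, so F13a1 did not follow Cd163. Lyve1 was at 24.7 against 62.6 CPM. The cells were split after their values were seen and come from 1 tumour, so these levels are a description with no test. With members that held H2-Ab1 only, an alternative chosen after seeing the data, 103 genes were higher and 83 lower than in other C1q macrophages.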
